A study of Mus musculus with 4 samples.

Results

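The cytosolic ribosomal protein genes were examined in mouse parthenogenetic embryonic stem cells (ESCs), haploid against diploid. Members were all genes whose array accession mapped to a symbol starting with Rpl or Rps and a digit, or to Rplp0, Rplp1, Rplp2 or Rpsa. Symbols marked -ps as pseudogenes and the Rps6k kinases were left out. Rps4l, a transcribed pseudogene by its RefSeq annotation, carries no such mark and was kept. The rule found 86 genes on 172 probes, of 19744 named genes on 26037 probes. They were 46 genes of the large subunit (103 probes), 30 genes of the small subunit (58 probes), 7 paralogs (8 probes) and 3 other genes (3 probes). The 76 large and small subunit genes are called the core genes here. Rps23 had no matched probe and was not analysed here, and Fau, which encodes a ribosomal protein fused to a ubiquitin-like sequence, fell outside the rule by name and is given with the translation partners.

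A ribosome is built from a small subunit, which reads the mRNA, and a large subunit, which joins the amino acids. Each holds ribosomal RNA and many proteins that are mostly present once per particle, so their mRNAs are made at similar rates and in dividing cells are among the most abundant of all. Most of these mRNAs begin with a C followed by a run of C and T, the 5′ terminal oligopyrimidine (TOP) tract, through which mTOR signalling and the binding protein Larp1 control their translation. A few subunit genes have paralogs that are used mainly in testis or muscle.

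The study profiled 2 haploid and 2 diploid samples of female ESCs, each by 1 one-colour Agilent array, with 0.2 µg of RNA labelled per sample. Both groups are parthenogenetic, that is, derived from unfertilised eggs and without a paternal genome. They differ by ploidy: the haploid cells carry 1 chromosome set. The titles number the samples 1 and 2 in each group and do not say whether these are separate lines. The labels do not say whether samples of the same number share an origin. They give no strain, passage, medium, sorting or share of haploid cells at harvest. The design text calls the samples of a group independent experiments, and p-values here rest on the spread within each pair of samples, which may be technical. Values are log2 signal relative to the array's 75th percentile, and a difference is the haploid mean minus the diploid mean.

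The start sites of core genes are shown first because the TOP tract is the feature these mRNAs are known for. RefSeq start windows (GRCm38.p6) were matched for 65 of the 86 members, 56 of them core genes. A C at the annotated start followed by at least 4 further C or T bases was present at 13 of 66 core starts (19.7%) and at 2.51% of all 32851 starts in the table. Each line gives 15 bases before the start and 15 from it, on the gene's strand, with the tract in capitals; the first 6 hold a tract and the last 2, a core gene and its paralog, do not.
Rps6, chr4:86857353-86857382, minus strand: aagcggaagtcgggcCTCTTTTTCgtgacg
Rps10, chr17:27635230-27635259, minus strand: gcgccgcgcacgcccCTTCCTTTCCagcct
Rps27, chr3:90213634-90213663, minus strand: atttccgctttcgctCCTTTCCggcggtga
Rpl15, chr14:18270972-18271001, minus strand: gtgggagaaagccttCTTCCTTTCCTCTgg
Rpl35, chr2:39005117-39005146, minus strand: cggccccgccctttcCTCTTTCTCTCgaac
Rpl38, chr11:114668565-114668594, plus strand: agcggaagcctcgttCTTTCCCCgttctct
Rpl39, chrX:37085208-37085237, minus strand: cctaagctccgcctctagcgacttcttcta
Rpl39l, chr16:10170213-10170242, plus strand: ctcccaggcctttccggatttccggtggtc

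An annotated start can lie a few bases from the true one, so a missing tract says only that these letters are not at that position. Among 7-base and 6-base motifs searched on both strands from 250 bases before to 50 after each start, CCGGAAG (a core of ETS family sites) was present at 37.9% of core starts and 8.86% of all starts. AAGATGG (part of the YY1 motif) was at 16.7% against 6.34%, CACGTG (the E-box bound by Myc) at 12.1% against 7.15%, and TATAAA at 9.09% against 13.6%.

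Detection was similar on the arrays, with 53.6% to 65.0% of probes detected above background and no saturation, and log2 signals correlated at 0.991 between the haploid and 0.993 between the diploid arrays. Diploid replicate 2 had the highest 75th percentile, 907 intensity units against 526, 553 and 617 on haploid replicates 1 and 2 and diploid replicate 1. The ESC markers Pou5f1, Sox2, Nanog and Zfp42 were well above background on all 4 arrays. All arrays were on 1 slide and read in 1 scan. Of 17962 features tested with limma, 20 passed an adjusted p of 0.05, 15 higher and 5 lower in haploid cells, and the median difference of all features was 0.02.

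All 86 ribosomal protein genes passed the filter on dim probes, as did 169 of their 172 probes. The core genes lay slightly higher in the haploid arrays as a block, with a median difference of 0.31 (SD over genes 0.10). Of the 76, 75 were above 0, against 53.2% of all features and 90.2% of the brightest features that are not members. No member passed the limma test at an adjusted p of 0.05, where 0.111% of all features did, and 1 member (the paralog Rpl39l) had an unadjusted limma p under 0.05, where 11.7% of all features did. Both haploid arrays were above both diploid arrays for 59 core genes (77.6%), against 26% of all features and 51.4% of the brightest features that are not members. For no core gene were both haploid arrays below both diploid arrays, where this held for 20.9% of all features and for 1.75% of the brightest features that are not members. In bulk RNA a change in the cells present and a change of RNA per cell cannot be told apart.

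The spread between the diploid arrays was larger than the difference between the groups. The core genes' median signal was 8.40 and 8.38 in haploid replicates 1 and 2, 8.31 in diploid replicate 1 and 7.89 in diploid replicate 2. Diploid replicate 2 was the lowest array for all 76 core genes and for 83 of the 86 members, the exceptions being Rpl3l, Rpl7l1 and Rps23rg1. The gene-wise gap between the 2 diploid arrays had a median of 0.43, larger than the 0.31 between the groups, while that between the haploid arrays was 0.01. Without diploid replicate 2 the median difference of the core genes was 0.10, with 70 of 76 above 0.

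**Figure D1:**
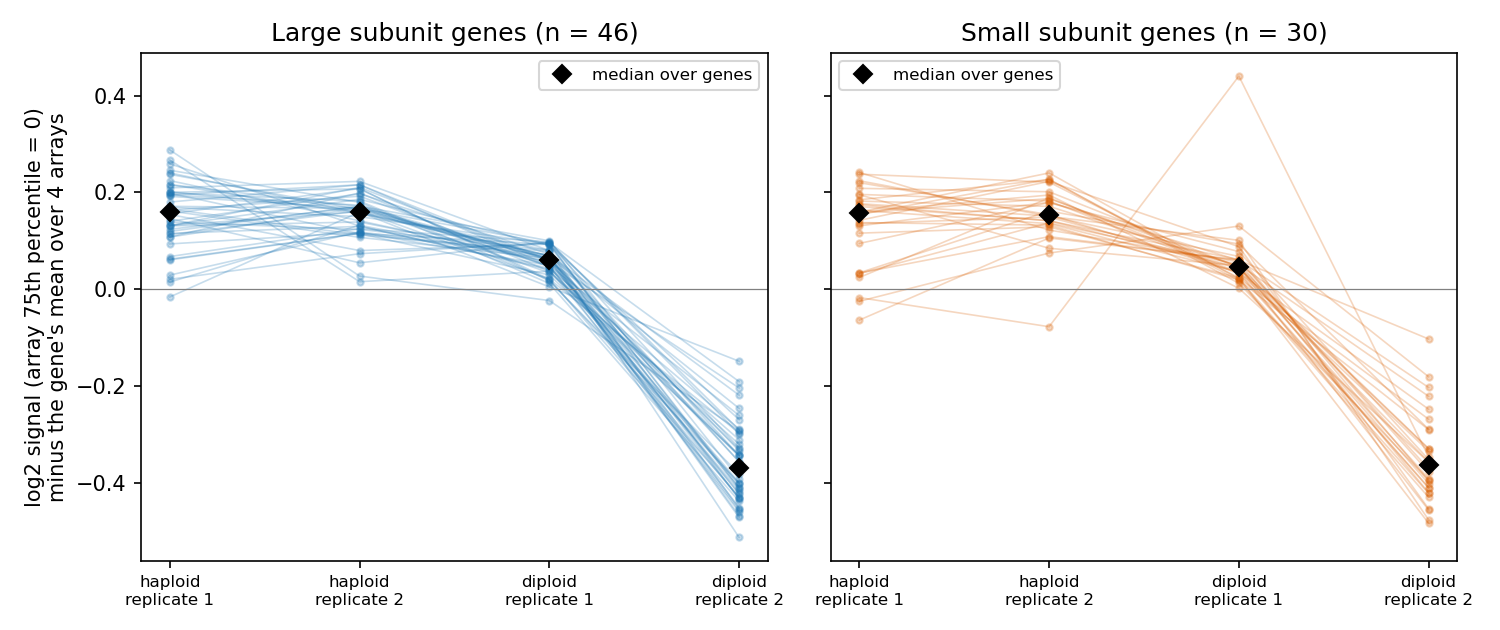
Log2 signal of each core gene minus its own mean over the 4 arrays (vertical axis), by array (horizontal axis), for 46 large subunit genes (left) and 30 small subunit genes (right). Lines join the arrays of 1 gene and black diamonds are medians over genes; diploid replicate 2 lies lowest for all 76 genes, and the line far above the others in diploid replicate 1 is Rps3.

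The order of the arrays depended on the scaling. Before it, the median processed signal of the core genes was 177594 and 183757 intensity units in haploid replicates 1 and 2 and 196106 and 215353 in diploid replicates 1 and 2, the opposite order. As a share of the summed signal of the array, core genes made up 9.56% and 9.47% in the haploid arrays and 9.36% and 8.61% in the diploid arrays. Under quantile normalization the median difference of the core genes was -0.02, in the authors' deposited value table -0.01, and under cyclic loess 0.05, so its direction turned under the first 2 of these.

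Brightness moved with the difference over the whole array, and 75 of the 76 core genes were in the brightest of 10 classes of equal size (Rpl21 was in class 5). Class medians ran from -0.17 in the dimmest to 0.22 in the brightest. The 1717 features of the brightest class that are not members had a median difference of 0.21, with 90.2% above 0 and both haploid arrays higher for 51.4%. Diploid replicate 2 was also the lowest array for 88.2% of them, against 34.5% of all features. The median of the core genes exceeded that of these features by 2.17 and 2.14 in the haploid arrays and by 2.13 and 1.99 in the diploid arrays. The part of brightness in the difference was not tested.

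**Figure D2:**
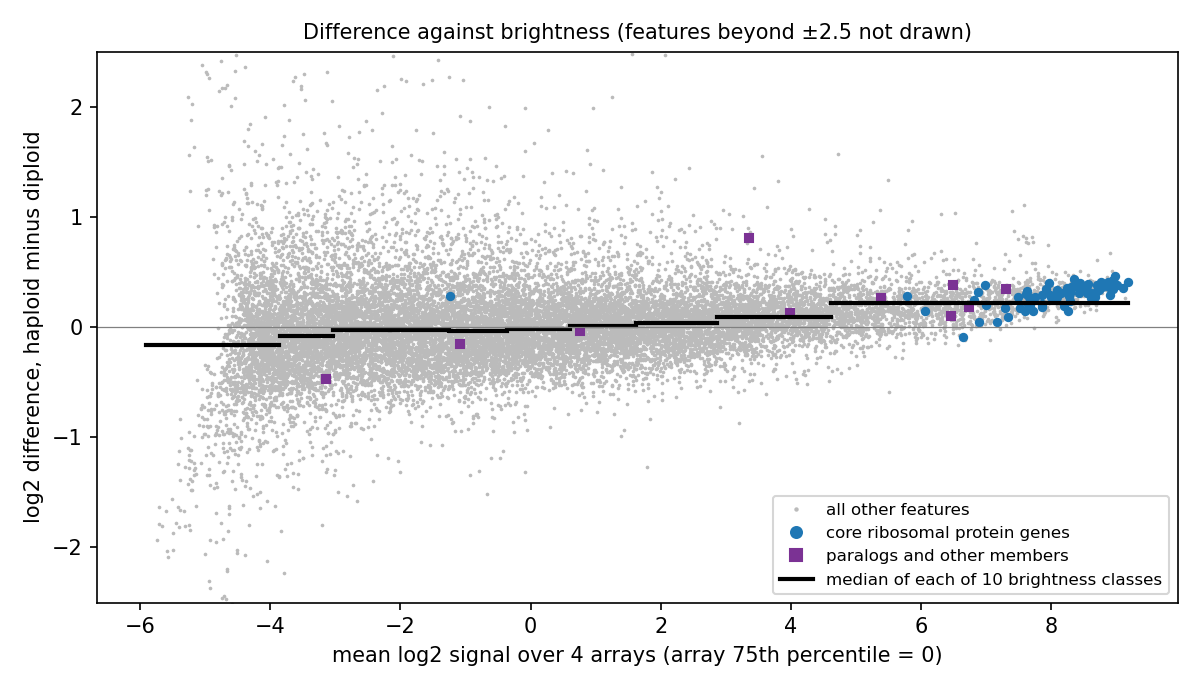
Difference, haploid minus diploid (vertical axis, log2), against mean log2 signal over the 4 arrays (horizontal axis) for all features (grey), core genes (blue) and other members (purple); black bars are medians of 10 brightness classes. Class medians climb from -0.17 to 0.22, and 75 of 76 core genes sit in the brightest class, with a median of 0.31.

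The genes of the large and small subunits had like values. The median difference was 0.31 for both, with an SD over genes of 0.09 for the 46 large subunit genes and 0.12 for the 30 small subunit genes. All 46 large subunit genes were above 0 (0.09 to 0.43) and 36 had both haploid arrays higher (78.3%). Of the small subunit genes 29 were above 0 (-0.09 to 0.46) and 23 had both haploid arrays higher (76.7%). The large subunit median minus the small subunit median was -0.01, -0.01, -0.02 and -0.07 in haploid replicates 1 and 2 and diploid replicates 1 and 2. The 4 X-linked core genes (Rpl10, Rpl36a, Rpl39 and Rps4x) had a median of 0.33 and the 72 autosomal ones of 0.31.

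Differences of the core genes lay close together: 57 of 76 were within 0.1 of their median. Genes were not grouped or compared by role. Rplp0, Rplp1 and Rplp2 form the stalk that recruits elongation factors, and their differences were 0.40, 0.36 and 0.36. Rplp0 was at 9.07 and 9.10 in the haploid and 8.95 and 8.43 in the diploid arrays, the pattern of most core genes. Rpl5 and Rpl11, which with 5S rRNA restrain Mdm2 when ribosome assembly stalls, had differences of 0.25 and 0.34. Rpl10a and Rpl38, which have been linked to translation of particular mRNAs, had 0.36 and 0.37.

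Among large subunit genes the highest differences were those of Rpl24, which helps to join the subunits, and Rpl9. Rpl24 was at 8.55 and 8.56 in the haploid and 8.42 and 7.83 in the diploid arrays, a difference of 0.43. Rpl9 was at 9.18 and 9.12 against 8.95 and 8.50, a difference of 0.43 ± 0.21 (SE, n = 2 per group; limma adjusted p 0.487). In both genes the groups did not overlap, as for 78.3% of large subunit genes. The gap between the diploid arrays was in both larger than the gap from diploid replicate 1 to the haploid arrays. Rpl41, the smallest ribosomal protein, had a difference of 0.38. The lowest of the large subunit was Rpl13a at 0.09, with overlapping groups (7.36 and 7.41 against 7.43 and 7.15), although its second probe gave 0.32.

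Among small subunit genes Rps14 was at 9.37 and 9.41 in the haploid and 9.20 and 8.75 in the diploid arrays, a difference of 0.41. Rps6, the substrate of S6 kinase, had 0.24, Rps19, a gene mutated in Diamond-Blackfan anaemia, 0.38, Rps25 0.33, and Rpsa, also known as the laminin receptor, 0.31. Both haploid arrays were above both diploid arrays for each of these 5 genes. The same held for 76.7% of small subunit genes and 51.4% of the brightest features that are not members.

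Rps3, at the mRNA entry channel, was the 1 core gene below 0. It was at 6.62 and 6.56 in the haploid and 7.08 and 6.29 in the diploid arrays, a difference of -0.09 ± 0.28 (SE; limma adjusted p 0.910), and its groups overlapped. The second Rps3 probe was at 1.67 and 1.46 against 1.35 and 1.11, a difference of 0.33, so the sign depended on the probe. Rps3a1 was at 6.82 and 6.99 against 6.94 and 6.78, a difference of 0.04. Rpl21, the dim exception among core genes, was at -0.97 and -1.22 against -1.20 and -1.56, a difference of 0.28 with overlapping groups, and -0.09 on its second probe.

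**Figure D3:**
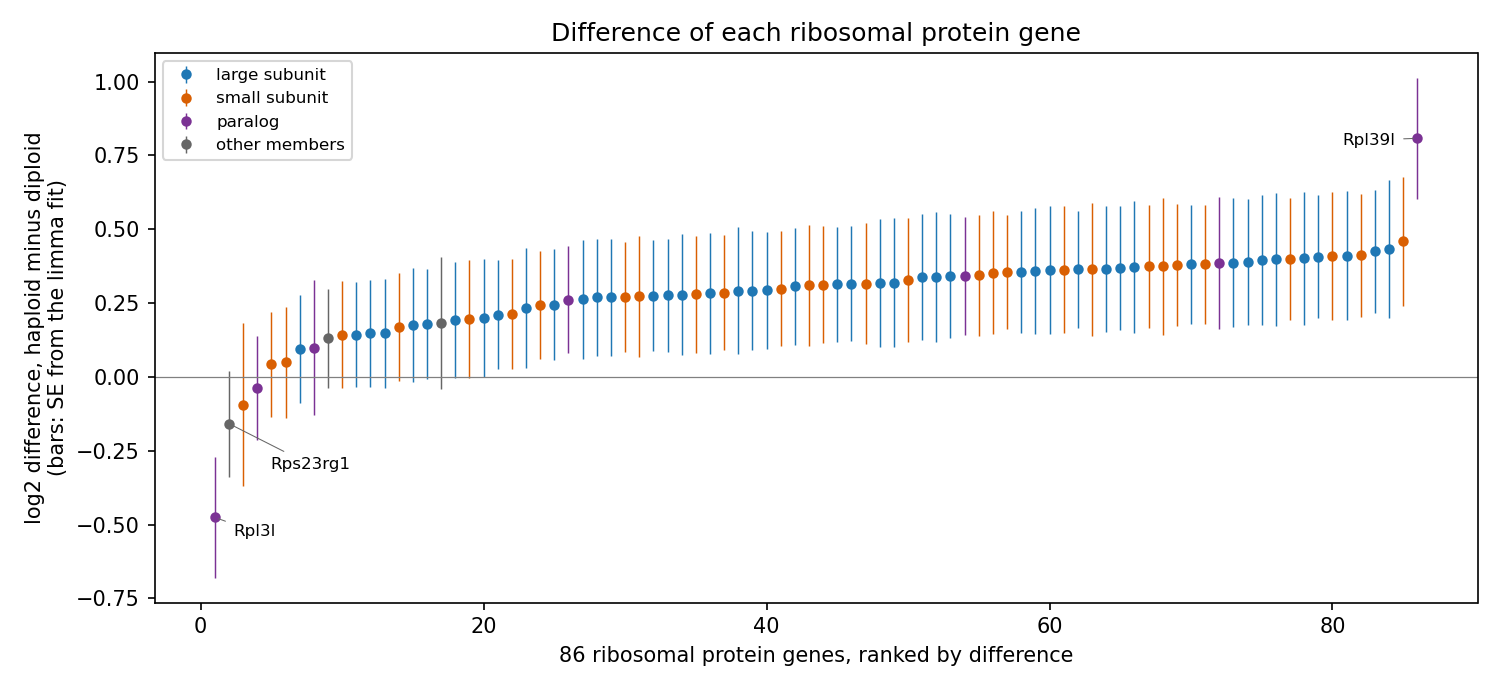
Difference, haploid minus diploid (vertical axis, log2), of each of the 86 genes in order of difference (horizontal axis); bars are the SE of the limma fit (n = 2 per group) and colours mark the class. Core genes form a plateau around 0.31, Rpl39l (0.81) stands above it, and Rpl3l (-0.48) and Rps23rg1 (-0.16) lie lowest.

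Several probes of 1 gene allowed the values to be checked within genes. Of the 169 probes that passed, 160 were above 0, with a median of 0.28. In 52 genes with more than 1 such probe the highest and lowest differences were a median of 0.12 apart, and at most 0.50 (Rpl17, whose 7 probes ran from -0.01 to 0.48). Probes of 6 genes differed in sign: Rpl17, Rpl6, Rps3, Rpl21, Rpl22 and Rpl10l. The 4 probes of Rpl6 gave 0.34, 0.36, 0.36 and -0.07, and those of Rpl22 gave 0.34 and -0.03. Ribosomal protein genes have many processed pseudogenes of near-identical sequence, so a probe can read more than its named gene; probe sequences were not used here.

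The paralogs ranged more widely than the core genes, from -0.48 to 0.81. Rpl39l, a paralog of Rpl39 best known from male germ cells, had the largest difference of all 86 members. Rpl39l had 1 probe, so its difference could not be checked within the gene. It was at 3.60 and 3.91 in the haploid arrays and 3.10 and 2.80 in the diploid arrays, so the groups did not overlap. The difference was 0.81 ± 0.20 (SE, n = 2 per group), a fold of 1.75, with a limma adjusted p of 0.221. Of the 1796 features in its brightness class, whose median was 0.09, 16 had a larger difference. Before scaling, too, both haploid arrays were above both diploid arrays for Rpl39l, at 6394 and 8325 intensity units against 5290 and 6308, where the median of the core genes had the opposite order.

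The Rpl39l difference kept its direction under all settings tried, between 0.52 and 1.20. It passed the limma test in 2 of them, both of which called more of all features than the 20 of the main fit. These were without background subtraction (0.80, adjusted p 0.0294) and with an intensity trend and robust prior variance in limma (adjusted p 0.0102). Over all settings the limma adjusted p of Rpl39l ran from 0.0102 to 0.873. Leaving out 1 array at a time gave 0.65 to 0.96. Rpl39, its parent, was at 8.35 and 8.27 against 8.18 and 7.81, a difference of 0.31.

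Rpl3l, a paralog of Rpl3 used in striated muscle, had the lowest difference. It was at -3.59 and -3.17 in the haploid and -2.96 and -2.86 in the diploid arrays, a difference of -0.48 ± 0.20 (SE; limma adjusted p 0.439). The groups did not overlap, but the probe was dim, between 43.6 and 125 intensity units before scaling. In its brightness class, with a median of -0.08, 229 of 1796 features had a lower difference, and over the settings its value ran from -0.89 to -0.12. Its parent Rpl3 had a difference of 0.15.

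The other paralogs were closer to their parents. Rpl22l1, a paralog of Rpl22 whose level depends on Rpl22 in some cells, was at 6.42 and 6.59 against 6.67 and 6.14, a difference of 0.10 with overlapping groups, where Rpl22 had 0.34. Rps27l, a p53 target, had 0.34 and Rps27 0.36, and Rpl36al had 0.39 and Rpl36a 0.40. The retrogene Rpl10l, known from spermatogenesis, had 0.26 on its brighter probe and -0.08 on the other, and Rpl10 had 0.34. Rpl7l1, a relative of Rpl7, was at 0.63 and 0.86 against 0.78 and 0.78, a difference of -0.04, where Rpl7 had 0.21.

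Each paralog was then set against its parent within an array, which removes any scaling common to both. A difference that moves with brightness is not removed. Rpl3l was in brightness class 2 (median -0.08) and Rpl39l in class 9 (0.09), while Rpl3 and Rpl39 were in class 10 (0.22). The part of brightness in the pair contrasts was not tested. Of 10 pairs listed, both genes passed the filter in 8. These 8 include Rps4l, set against Rps4x, although Rps4l is counted here among the other members and not the paralogs. The difference of differences, paralog minus parent, was 0.49 ± 0.20 for Rpl39l, -0.62 ± 0.25 for Rpl3l, -0.24 ± 0.09 for Rpl22l1 and -0.12 ± 0.08 for Rps4l (SE, n = 2 per group). In these 4 pairs the within-array contrast did not overlap between groups, which gives the smallest p that an exact two-sided permutation test of 2 against 2 arrays allows, 0.333 (0.667 adjusted over the 8 pairs). It was -0.25 ± 0.19 for Rpl7l1, -0.08 ± 0.10 for Rpl10l, -0.02 ± 0.08 for Rps27l and -0.02 ± 0.07 for Rpl36al, with exact permutation p of 0.667, 0.667, 1 and 1. This permutation test therefore cannot reach 0.05 for any pair. Of all single features, 26% had both haploid arrays above both diploid arrays and 20.9% had both below.

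**Figure D4:**
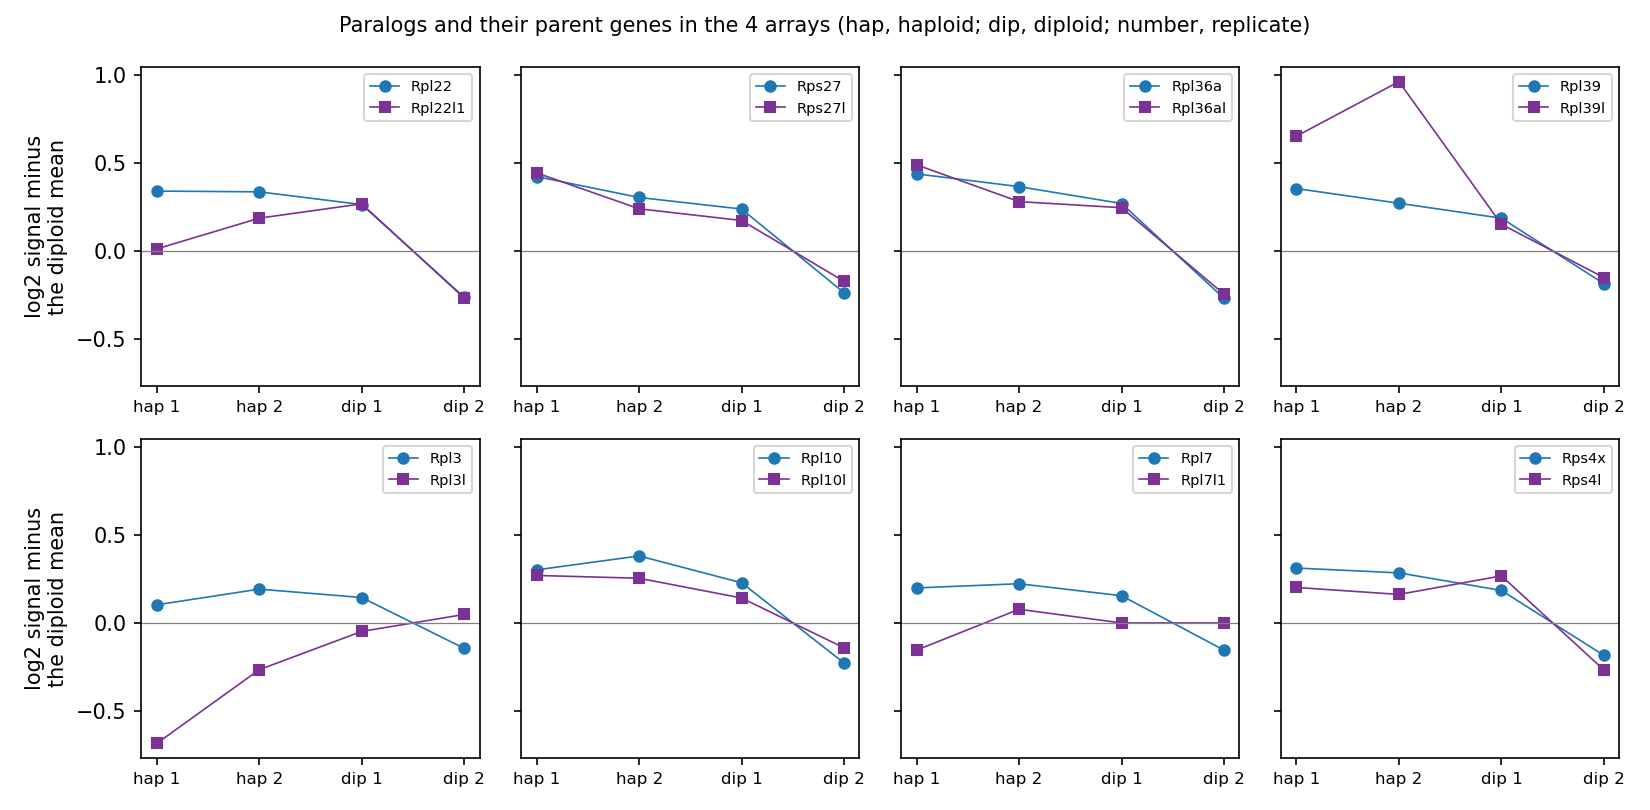
Log2 signal minus the gene's own diploid mean (vertical axis) in each array (horizontal axis) for 8 pairs of a paralog or Rps4l (purple squares) and its parent (blue circles). Rpl39l lies above Rpl39 in both haploid arrays and Rpl3l below Rpl3, while Rps27l and Rpl36al follow their parents.

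The 3 remaining members carry ribosomal names without being subunit genes of the usual kind. Rps4l, annotated by RefSeq as a transcribed pseudogene, had a difference of 0.18 with overlapping groups, Rps23rg1, a retrogene of Rps23, had -0.16, and Rps19bp1, which encodes an RPS19 binding protein, had 0.13. None of the 3 passed the limma test.

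Genes around the ribosome were given by list, and none of the genes in these lists passed the limma test at an adjusted p of 0.05 (0.111% of all features did). Translation partners with TOP mRNAs lay nearest to the core genes: of 24 tested, 19 were above 0, the median was 0.25, and 20 were in the brightest class. Both haploid arrays were higher for 15 of the 24, where this held for 26% of all features and 51.4% of the brightest class. Fau had 0.41 ± 0.21 (SE), the 40S scaffold Rack1 0.33, the elongation factors Eef1a1 and Eef2 0.23 and 0.27, Eef1d 0.47, Eef1b2 0.42, Tpt1 0.31 and the nucleolar protein Npm1 0.24. Other initiation and elongation factors had a median of 0.08, with 22 of 33 above 0, among them Eif2b5 at 0.41 and Eif2s2 at 0.28. Of the 33, 12 were in the brightest class.

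The machinery that makes ribosomes had medians near that of all features (0.02). Fewer of these genes were in the brightest class than of the core genes, 13 of 72 assembly genes and 2 of 32 polymerase genes. The part of brightness in their medians was not tested. Ribosome assembly and rRNA processing genes had a median of 0.03, with 40 of 72 above 0. Of the 72, 15 had both haploid arrays higher and 14 had both lower, where 26% and 20.9% of all features were so placed. Among the assembly genes Fbl, the methyltransferase of rRNA, had 0.21, nucleolin (Ncl) -0.15, the assembly ATPase Mdn1 -0.53 and the pseudouridine synthase Dkc1 -0.38. RNA polymerase I and III genes were split evenly, 16 of 32 above 0, with Polr1d at 0.53, Polr1a at 0.09, Polr1b at -0.30, Polr3gl at -0.46 and the rDNA factor Ubtf at 0.07.

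Regulators of ribosomal protein synthesis had a median of 0.05, with 18 of 31 above 0 and 6 in the brightest class. Myc, which drives transcription of ribosome genes, had 0.10 ± 0.45 (SE), Mycn 0.41 ± 0.20 (limma adjusted p 0.474) and Mxd4, of the family that opposes Myc, 0.86 ± 0.17 (limma adjusted p 0.163). Mtor had -0.28, the S6 kinase gene Rps6kb2 -0.38 and Larp1 0.07. None of these differences passed the test.

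Outside the cytosolic ribosome, mitochondrial ribosomal proteins had a median of 0.16, with 61 of 77 above 0 and 28 in the brightest class. Proteasome subunits, another set of abundant housekeeping genes, also had 0.16, with 31 of 39 above 0 and 20 in the brightest class. The members with the smallest p were Mrpl49 at 0.57 and Mrps28 at 0.48, and Psmb5 at 0.49 and Psmb8 at -0.34.

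Markers of other cells a culture could hold were set beside these values. Of 24 fibroblast genes on the array 19 passed the filter, with a median of 0.58 and 14 above 0. Their summed level was 4.31 and 3.94 in the haploid and 3.57 and 3.15 in the diploid arrays, and Pdgfra, Pdgfrb, Fap, Prrx1 and Col5a2 did not pass the filter. Of 12 trophectoderm genes 9 passed, with a median of 0.40 and a summed level of 4.52 and 4.34 against 4.07 and 4.13, and Cdx2, Elf5 and Hand1 did not pass. Primitive endoderm genes (9 of 14 passed) had a median of 0.06 and pluripotency genes 0.03. The part of such cells in the values of the ribosomal protein genes was not tested.

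Core genes with and without a TOP tract at the annotated start were set side by side. The 13 with it had a median difference of 0.28 (0.20 to 0.41) and the 43 without it of 0.32 (-0.09 to 0.43). Rps6 and Rpl38, with start windows printed above, were at 0.24 and 0.37.

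The values under each way of processing are set out together for the core genes and the paralogs at the extremes. The core median moved from -0.02 under quantile normalization to 0.78 under the normexp background correction on all spots, whereas Rpl39l stayed above 0 and Rpl3l below 0 throughout.

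**Figure D5:**
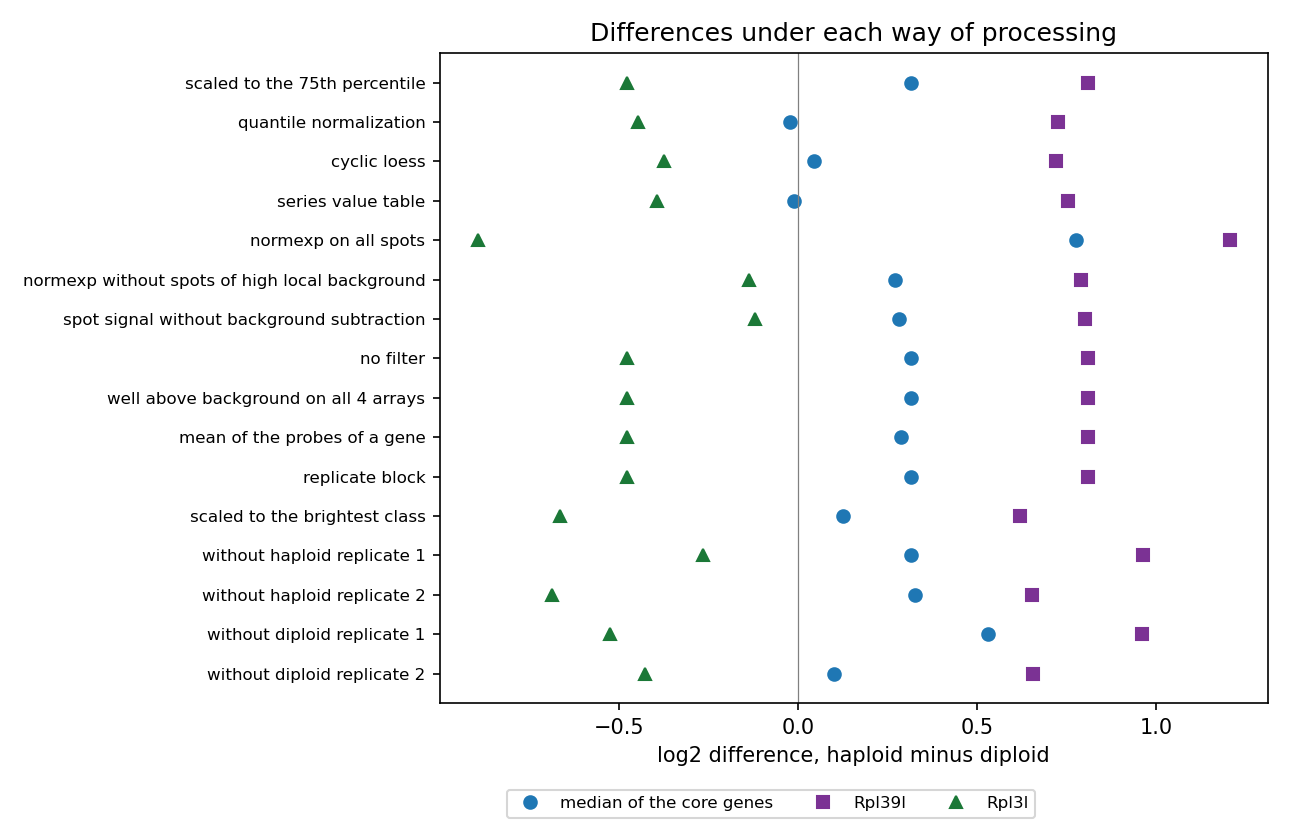
Difference, haploid minus diploid (horizontal axis, log2), under each way of processing (vertical axis) for the median of the core genes (blue circles), Rpl39l (purple squares) and Rpl3l (green triangles). The core median falls to -0.02 under quantile normalization and 0.10 without diploid replicate 2, while Rpl39l lies between 0.62 and 1.20 in the settings drawn.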

How the data were processed

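Total RNA of the 4 samples was labelled with Cy3 and hybridised to 1-colour Agilent arrays, per the labels' protocols, all read in 1 scan. Agilent Feature Extraction 11.0.1.1 wrote the scanner files, per the file headers, and their processed signal is a linear intensity. The value table deposited by the authors also holds linear intensity values (column medians 28.4, 28.3, 28.4 and 28.3, Spearman correlation with the scanner signal from 0.999884 to 0.999956), whose scaling method was not stated in the labels or headers. Spots marked as outliers were left out (121, 142, 126 and 168 of 43020, in the order haploid replicates 1 and 2, diploid replicates 1 and 2), repeated spots were averaged, and values are log2 of the processed signal minus the array's 75th percentile (526, 553, 617 and 907 intensity units). No spot was saturated, and the number of arrays limits the precision.

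Accessions were named through RefSeq genes (GRCm38.p6), which named 26037 of 39409 probes (66.1%). Probes detected well above background by both replicates of either group were kept, and each gene was represented by its brightest such probe. Differences were tested with limma 3.58.1 in R 4.3.3 (linear models with empirical Bayes variances, two-sided, n = 2 per group) over 17962 features, adjusted by the Benjamini-Hochberg method and called under 0.05, a fit checked on simulated data. Tables were read with Python 3.11.15 and pandas 2.3.3. The alternatives changed the scaling, the background correction, the filter, the probe rule, the prior variance and the arrays used, and 3 of them were chosen after seeing the data. The scanner files hold the median spot signal, which took the place of the planned mean signal. Genes named with values were the paralogs and their parents, the stalk genes and Rpsa, 10 preset members, the 5 largest and 5 smallest differences, the 5 smallest p and members whose probes differed in sign, and, in related lists, 16 preset genes and up to 2 members with the smallest p. Members, lists and tests were chosen with earlier results of these data known. Some genes that this rule names are not reported here.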

Additional observations from a re-analysis of the deposited data

How the results depend on the processing

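The median difference of the core genes (0.31) was -0.021 under quantile normalization, -0.012 in the authors' deposited value table, 0.045 under cyclic loess and 0.78 with normexp on all spots, where diploid replicate 2 held 6 spots of local background above 100; it was 0.27 without such spots, 0.28 without background subtraction and 0.13 scaled to the brightest class. Leaving out 1 array gave 0.10 to 0.53. Large minus small subunit moved to -0.031 with the mean of each gene's probes, and leaving out 1 array gave -0.021 to 0.0076. The median paralog minus parent contrast (-0.10) was 0.0096 under cyclic loess, 0.034 under quantile normalization and 0.063 in the value table, and -0.13 to -0.044 without 1 array. The limma call count of members, 0 (1 at an unadjusted p under 0.05), became 1, Rpl39l, without background subtraction and with the trend and robust prior; it stayed 0 under the other settings and without any 1 array. Of all features 20 were called, against 267, 425, 122 (normexp without those spots), 82 (detected on all arrays), 35 (each probe), 7 (quantile) and 4 (value table), 0 with normexp on all spots, cyclic loess, no filter and scaling to the brightest class, and 0 to 291 without 1 array. Same-numbered samples deviated together at a correlation of 0.05. This is 1 contrast per group and cannot tell whether same-numbered samples share an origin. With the replicate as a block 0 members and 2 features were called. The cause of these changes was not tested. With 2 arrays a group, signal over background limits Rpl3l and other dim probes.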
